A study of Mus musculus with 12 samples.

Results

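The genes described here mark the start of endochondral ossification, in which bone replaces a cartilage template. The list held 10 genes, chosen by name, and every probe set annotated to 1 of them alone was read in every array. A probe set is the group of short probes that measures a transcript on an Affymetrix array. Of the 10 genes, 7 had a named probe set, with 9 probe sets between them, out of 18193 genes tested and 45037 probe sets other than controls. These 7 were Ihh, Pth1r, Runx3, Sp7, Alpl, Ibsp and Mmp13. Pthlh, Runx2 and Spp1 were not analysed here, because the probe annotation used here pairs none of its probe sets with them.

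In a growth plate, chondrocytes that are about to enlarge make the signal Indian hedgehog (Ihh). Ihh raises the level of parathyroid hormone-related peptide (Pthlh), which acts through its receptor Pth1r to hold younger chondrocytes in a dividing state, and Ihh also acts on the surrounding perichondrium, where osteoblasts form. Runx2 and Runx3 drive chondrocyte maturation, Runx2 and Sp7 (osterix) commit cells to the osteoblast lineage, and Alpl, Ibsp, Spp1 and Mmp13 serve mineralisation and matrix turnover in hypertrophic cartilage and young bone.

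The 12 arrays measured total RNA of embryonic mouse limbs, labelled C57BL/6, in 6 groups of 2. They comprised Lmx1b -/- (KO) and Lmx1b +/+ (WT) limbs at 11.5, 12.5 and 13.5 days post coitum (dpc). Lmx1b encodes a LIM homeodomain protein, which makes the mesenchyme of the limb take on dorsal character, and the series title sets the comparison in the period of limb dorsalization. The labels give the genotype as homozygous and name no further allele or agent in any group. Each array read a pool of fore- and hindlimbs, of 6 limbs at 11.5 and 13.5 dpc and of 3 at 12.5 dpc per the series text, or of 6 throughout per the extraction protocol, and replicate pools came from different embryos. Limb buds with their girdles were dissected at 11.5 and 12.5 dpc, but only the zeugopod and autopod at 13.5 dpc, and each stage also had a scan series of its own. A change between 12.5 and 13.5 dpc therefore cannot be told apart from the change in dissected part, and no change between stages can be told apart from the scan series. In such bulk samples, fewer cells of a type and less RNA per cell cannot be told apart either.

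Lmx1b read 5.60 and 5.72 log2 units in KO at 11.5 dpc, 6.50 and 7.02 at 12.5 dpc, and 7.48 and 8.88 at 13.5 dpc, against 9.28 and 9.64, 9.29 and 9.55, and 10.27 and 10.19 in WT at the same stages. All KO arrays lay below their WT arrays, and the second KO array at 13.5 dpc came closest. That array also had the highest mean over 5 erythroid genes of its stage, with 11.58 log2 units, against 10.48 in the first KO array and 10.28 and 9.95 in WT. Its mean over 5 girdle and proximal limb genes was 8.67, against 7.62 in the other KO array and 7.76 and 7.62 in WT. The second KO array at 12.5 dpc had a mean of 8.23 over 18 cartilage genes, against 9.05 in its partner and 9.16 and 9.21 in WT, and of 9.96 over 6 muscle genes, against 11.27 in its partner and 10.89 and 11.03 in WT. These 2 KO arrays stood apart from their partners, and values without them stand beside the main results on which they bear.

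Among the 9 probe sets, the spread of levels was wide. The Pth1r probe set had a mean above that of 90.3% of all probe sets, those of Ihh, Runx3, Sp7 and Alpl lay between 50.7% and 56.6%, and those of Mmp13 and Ibsp between 1.21% and 15.5%. Levels on this platform depend on the probes, so they order samples and not genes. The group means of Ihh spanned 2.34 log2 units, more than those of any other probe set of the list. The second Runx3 probe set spanned 1.61, Pth1r 0.78 and the remaining 6 between 0.14 and 0.55.

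**Figure D1:**
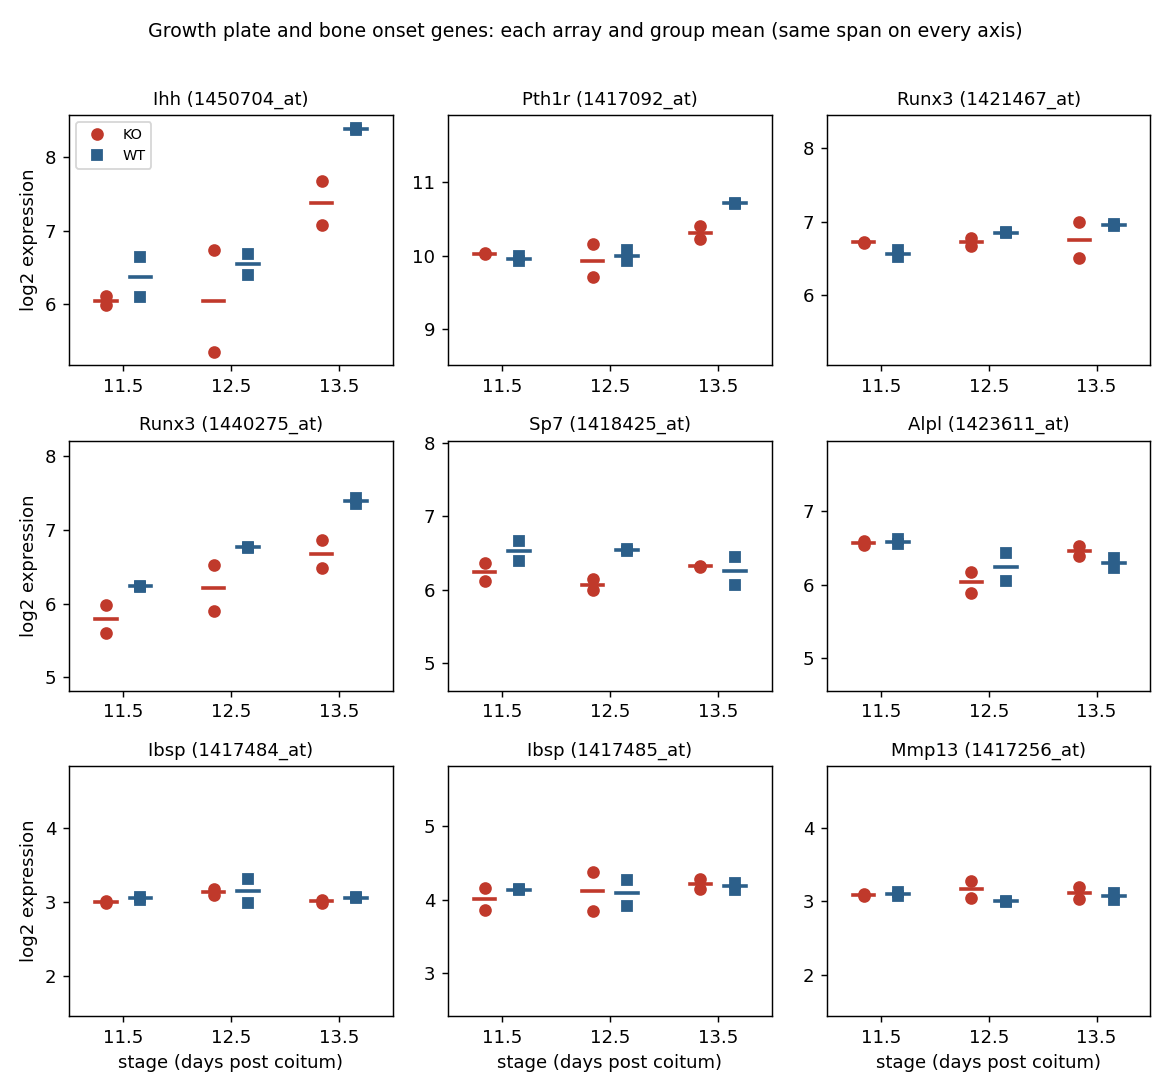
Log2 expression of the 9 probe sets (1 panel each, same axis span) by stage in days post coitum. Red circles are the 2 KO arrays, blue squares the 2 WT arrays and bars the group means. Ihh, Pth1r and both Runx3 probe sets have their highest group mean in WT at 13.5 dpc, whereas Ibsp and Mmp13 stay flat between 2.99 and 4.38.

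The bases before the starts of 4 of these genes are shown to set the pair that rose together in WT limbs, Ihh and Pth1r, beside the pair of late genes that stayed near the bottom of the arrays, Ibsp and Mmp13. They are RefSeq sequences of assembly GRCm38.p6, which lists starts for 9 of the 10 genes. Each runs 5′ to 3′ on the gene's strand over the 250 bases that end just before the annotated start, and for Pth1r the first of 3 listed starts is used. The Ihh window is chr1:74951673-74951922 (minus strand), the Pth1r window chr9:110747146-110747395 (minus strand), the Ibsp window chr5:104299037-104299286 (plus strand) and the Mmp13 window chr9:7272264-7272513 (plus strand). Capitals mark matches, on either strand, to any of 5 motifs.
Ihh: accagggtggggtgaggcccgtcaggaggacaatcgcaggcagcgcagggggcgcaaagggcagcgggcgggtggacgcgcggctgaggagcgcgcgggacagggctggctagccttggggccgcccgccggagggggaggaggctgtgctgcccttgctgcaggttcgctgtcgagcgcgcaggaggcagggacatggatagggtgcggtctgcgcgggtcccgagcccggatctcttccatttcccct
Pth1r: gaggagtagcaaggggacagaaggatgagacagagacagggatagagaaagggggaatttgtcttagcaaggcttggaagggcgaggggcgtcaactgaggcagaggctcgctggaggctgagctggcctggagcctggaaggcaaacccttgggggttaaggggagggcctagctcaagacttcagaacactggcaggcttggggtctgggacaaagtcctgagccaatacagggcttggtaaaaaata
Ibsp: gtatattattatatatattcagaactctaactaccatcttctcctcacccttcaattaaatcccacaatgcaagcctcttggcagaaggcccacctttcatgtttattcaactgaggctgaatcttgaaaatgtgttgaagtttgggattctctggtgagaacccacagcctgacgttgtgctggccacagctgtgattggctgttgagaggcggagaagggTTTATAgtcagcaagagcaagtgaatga
Mmp13: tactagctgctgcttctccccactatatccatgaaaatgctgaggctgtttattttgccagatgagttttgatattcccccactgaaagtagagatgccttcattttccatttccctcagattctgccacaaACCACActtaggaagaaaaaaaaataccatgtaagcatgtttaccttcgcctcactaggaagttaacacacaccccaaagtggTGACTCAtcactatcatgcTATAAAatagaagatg

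The motifs searched were TGTGGT (RUNX factors), TGGGTGGTC (GLI factors), TGANTCA (AP-1), TGACGTCA (the cyclic AMP response element) and TATAAA (the TATA box). Among 32851 such windows in RefSeq, 14.0% held the RUNX motif, 0.225% the GLI motif, 6.75% the AP-1 motif, 1.55% the cyclic AMP element and 12.4% the TATA box. The windows of Ihh and Pth1r held none of the 5. That of Ibsp held a TATA box on the opposite strand that begins 28 bases before the start. That of Mmp13 held a RUNX match on the opposite strand 118 bases, an AP-1 match 35 bases and a TATA box 16 bases before the start. No matches overlapped each other. A match says only that the letters are there, and the arrays did not measure binding.

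Ihh, the hedgehog signal of prehypertrophic cartilage, was the member that changed most. At 11.5 dpc it read 5.98 and 6.11 log2 units in KO limbs, against 6.09 and 6.64 in WT limbs. The genotypes overlapped. At 12.5 dpc it read 6.73 and 5.34 in KO limbs, against 6.69 and 6.40 in WT limbs. The KO arrays held both the highest and the lowest value of that stage, and the low one was the lowest Ihh value of the series. At 13.5 dpc it read 7.67 and 7.08 in KO limbs, against 8.37 and 8.39 in WT limbs. Here the groups did not overlap, and every array exceeded every array of the earlier stages. In order of group mean, WT at 13.5 dpc (8.38) stood above KO at 13.5 dpc (7.38), and both stood clear of the other 4 groups. Those 4 had means from 6.04 to 6.54, and each overlapped its neighbour in that order.

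Between 12.5 and 13.5 dpc Ihh rose in both genotypes, as the plot of changes between stages shows. In KO limbs it was 1.34 ± 0.37 log2 units higher at 13.5 dpc (SE, a 2.53-fold difference, limma adjusted p = 0.0320). In WT limbs it was 1.84 ± 0.37 higher (3.58-fold, limma adjusted p = 0.00636). The WT rise passed in 21 of 21 alternative analyses. The KO rise passed in 13 of 21. It was 0.64 without the second KO array at 12.5 dpc (adjusted p = 0.114), 2.03 without the first, and 1.04 without the first KO array at 13.5 dpc (adjusted p = 0.198). The adjusted p was 0.0501 or 0.0511 without any single KO array at 11.5 dpc or WT array at 13.5 dpc, 0.0569 with an intensity trend and robust prior, and 0.112 with array quality weights. The difference between these rises was -0.50 ± 0.52 (limma adjusted p = 0.825), so they were not shown to differ.

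**Figure D2:**
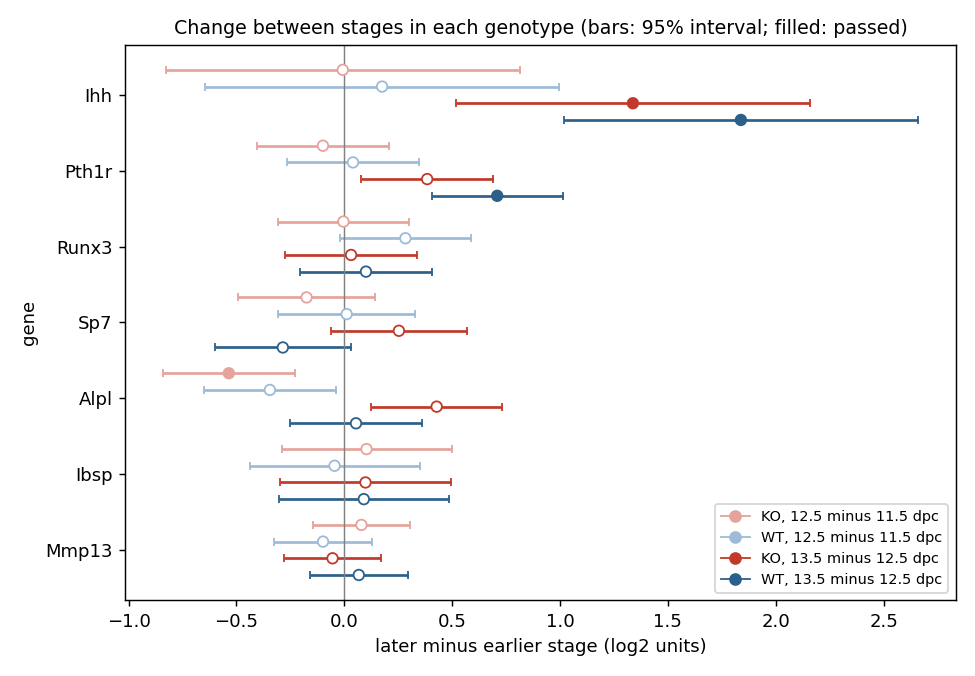
Log2 difference of the later minus the earlier stage for the 7 genes, with 1 probe set each. Red shades are KO and blue shades WT, pale for 12.5 minus 11.5 dpc and dark for 13.5 minus 12.5 dpc. Bars are 95% intervals of the limma fit, filled points passed the adjusted threshold of 0.05, and the rises of Ihh and Pth1r lie farthest right.

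Pth1r, the receptor through which parathyroid hormone-related peptide acts, was the other member that rose in WT limbs. It read 10.02 and 10.04 log2 units in KO and 9.93 and 10.002 in WT at 11.5 dpc. At 12.5 dpc it read 10.16 and 9.71 in KO and 9.92 and 10.08 in WT. At 13.5 dpc it read 10.40 and 10.23 in KO and 10.72 and 10.70 in WT. The highest values were those of WT at 13.5 dpc, followed by KO at 13.5 dpc, and the 4 earlier groups lay within 9.71 to 10.16. The change between 12.5 and 13.5 dpc was 0.38 ± 0.14 log2 units in KO limbs (limma adjusted p = 0.0767) and 0.71 ± 0.14 in WT limbs (1.64-fold, limma adjusted p = 0.00543). The KO value passed in 3 of 21 alternatives and the WT value in 21 of 21. The difference between the 2 changes was -0.32 ± 0.19 (limma adjusted p = 0.690). Leaving out the first KO array at 12.5 dpc gave 0.61 for the KO change (adjusted p = 0.00696), and leaving out the second gave 0.16.

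Of the 7 measured members, 1 (Ihh) therefore passed as higher at 13.5 than at 12.5 dpc in KO limbs, where 10.4% of all genes tested did and 18.6% passed in either direction. In WT limbs 2 passed (Ihh and Pth1r), where 14.5% of all genes did and 25.3% passed in either direction. None passed as lower, and the other 5 members had changes between -0.28 and 0.10 in WT limbs. The split of all calls depended on scaling: 55.8% of those in KO and 57.3% of those in WT limbs were higher, and 37.4% and 35.0% were after each array's median was subtracted. Over the step from 11.5 to 12.5 dpc, 1 of 7 passed in KO limbs (Alpl, lower, where 10.6% of all genes were and 16.8% passed in either direction), and 0 of 7 passed in WT limbs, where 19.8% of all genes passed in either direction. At an unadjusted p under 0.05, limma gave 1 of 7 in WT limbs for that step, again Alpl, where 34.6% of all genes did. Over this step 6.22% of all genes passed as higher in KO and 6.67% in WT limbs. Of all calls, 37.0% in KO and 33.7% in WT limbs were thus higher, 60.3% and 64.1% after subtraction of array medians, and 47.0% and 46.5% after renewed quantile normalization.

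Runx3, a Runt-domain factor of maturing chondrocytes, was read by 2 probe sets that differed. The brighter one, 1421467_at, read 6.73 and 6.71 log2 units in KO and 6.61 and 6.52 in WT at 11.5 dpc, 6.77 and 6.66 in KO and 6.85 and 6.85 in WT at 12.5 dpc, and 7.00 and 6.50 in KO and 6.94 and 6.97 in WT at 13.5 dpc. Both KO arrays lay above WT at 11.5 dpc and below WT at 12.5 dpc, and at 13.5 dpc the KO arrays held the highest and the lowest value of all 12. The difference of the KO effect between 12.5 and 11.5 dpc was -0.29 ± 0.19 (limma adjusted p = 0.879).

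The second Runx3 probe set, 1440275_at, read 5.60 and 5.99 log2 units in KO and 6.22 and 6.24 in WT at 11.5 dpc, 6.53 and 5.90 in KO and 6.75 and 6.77 in WT at 12.5 dpc, and 6.87 and 6.48 in KO and 7.36 and 7.43 in WT at 13.5 dpc. Both KO arrays lay below both WT arrays at each of the 3 stages, as they did for 0.87% of all probe sets. Over the 3 stages it was -0.57 ± 0.12 log2 units in KO relative to WT, which did not pass in the limma fit over all probe sets (adjusted p = 0.191). From 12.5 to 13.5 dpc it had a change of 0.46 ± 0.20 in KO limbs (adjusted p = 0.141) and of 0.63 ± 0.20 in WT limbs (adjusted p = 0.0510). Its group mean was higher at each later stage in both genotypes, and reached 6.68 in KO and 7.40 in WT limbs at 13.5 dpc, while those of the first probe set spanned only 0.38.

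Sp7, the zinc finger factor that osteoblast formation requires, read 6.12 and 6.36 log2 units in KO limbs at 11.5 dpc, against 6.39 and 6.66 in WT limbs. At 12.5 dpc it read 6.14 and 5.99 in KO limbs, against 6.55 and 6.52 in WT limbs. At 13.5 dpc it read 6.31 and 6.32 in KO limbs, against 6.06 and 6.44 in WT limbs. KO arrays lay below WT arrays at the first 2 stages and between them at the last. The KO minus WT difference was -0.47 ± 0.14 at 12.5 dpc (95% interval -0.79 to -0.16, limma adjusted p = 0.267). The KO effect at 13.5 dpc was 0.54 ± 0.20 above that at 12.5 dpc (limma adjusted p = 0.530). No change of Sp7 between stages passed in either genotype.

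Alpl, the alkaline phosphatase that frees phosphate for mineral, was the only other member with a change that passed. It read 6.55 and 6.60 log2 units in KO and 6.55 and 6.63 in WT at 11.5 dpc, 5.90 and 6.18 in KO and 6.06 and 6.43 in WT at 12.5 dpc, and 6.40 and 6.53 in KO and 6.37 and 6.23 in WT at 13.5 dpc. In both genotypes every array at 12.5 dpc lay below every array at 11.5 dpc. The share of all genes with such separate arrays is not given here, but lower calls were common over this step. They were 1923 of 3054 calls in KO and 2390 of 3603 in WT limbs. Alpl changed by -0.54 ± 0.14 from 11.5 to 12.5 dpc in KO limbs (limma adjusted p = 0.0256) and by -0.34 ± 0.14 in WT limbs (limma adjusted p = 0.104). The KO fall passed in 16 of 21 alternatives, and it was -0.43 after renewed quantile normalization (adjusted p = 0.0564) and -0.44 after subtraction of array medians (adjusted p = 0.0653). It was -0.56 or -0.51 without either KO array at 11.5 dpc and -0.39 without the first at 12.5 dpc (adjusted p = 0.102, 0.154 and 0.109). The WT value was -0.53 without the second WT array at 12.5 dpc (adjusted p = 0.0388). From 12.5 to 13.5 dpc the change was 0.43 ± 0.14 in KO limbs (limma adjusted p = 0.0540) and 0.05 ± 0.14 in WT limbs (limma adjusted p = 0.801). At 13.5 dpc both KO arrays lay above both WT arrays, by 0.17 ± 0.14 on average (limma adjusted p = 0.952).

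Ibsp, bone sialoprotein, and Mmp13, the collagenase of hypertrophic cartilage and osteoblasts, stayed dim. The 2 Ibsp probe sets ran from 3.85 to 4.38 and from 2.99 to 3.31 log2 units over the 12 arrays, and the Mmp13 probe set from 2.99 to 3.28. All of these values lay below 6.28, the median of all values, in all 12 arrays. Group means of the 3 probe sets spanned 0.14 to 0.20, and no difference passed in any comparison. Values this low lie close to the background of such arrays, so a change in these genes may not have been detectable. Of late markers in the other lists, Dmp1, Ifitm5 and Panx3 varied little. Dmp1 ran from 3.40 to 3.73, Ifitm5 from 5.79 to 6.34 and Panx3 from 4.52 to 4.96 over the 12 arrays. Other genes of the same lists, such as Col10a1 and Col1a1, did change and are described with their lists.

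None of the 7 members differed between genotypes past the threshold. For the mean KO minus WT difference over the 3 stages, 0 of 7 passed in the limma fit, where 0.203% of all genes did, and 2 (Ihh and Sp7) had an unadjusted p under 0.05, where 6.87% of all genes did. At 11.5 dpc 0 passed (0.0165% of all genes did) and 0 had an unadjusted p under 0.05 (1.64%). At 12.5 dpc 0 passed (0.0385%) and 1, Sp7, had an unadjusted p under 0.05 (10.9%). At 13.5 dpc 0 passed (0.0275%) and 2, Ihh and Pth1r, had an unadjusted p under 0.05 (5.9%). These counts use 1 probe set a gene, for Runx3 the brighter one. Its second probe set had an unadjusted p of 0.000547 for the mean difference, 0.0210 at 12.5 dpc and 0.00466 at 13.5 dpc. Those values came from the limma fit over all probe sets, where none of them passed (adjusted p = 0.191, 0.282 and 0.794). When the KO effect at a later stage was set against that at an earlier one, 0 of 7 passed in each of 3 comparisons, where 0.0% of all genes did. At an unadjusted p under 0.05 there were 0 members for 12.5 against 11.5 dpc (6.22% of all genes), 1 for 13.5 against 12.5 dpc (Sp7; 8.5%) and 1 for 13.5 against 11.5 dpc (Pth1r; 2.07%).

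**Figure D3:**
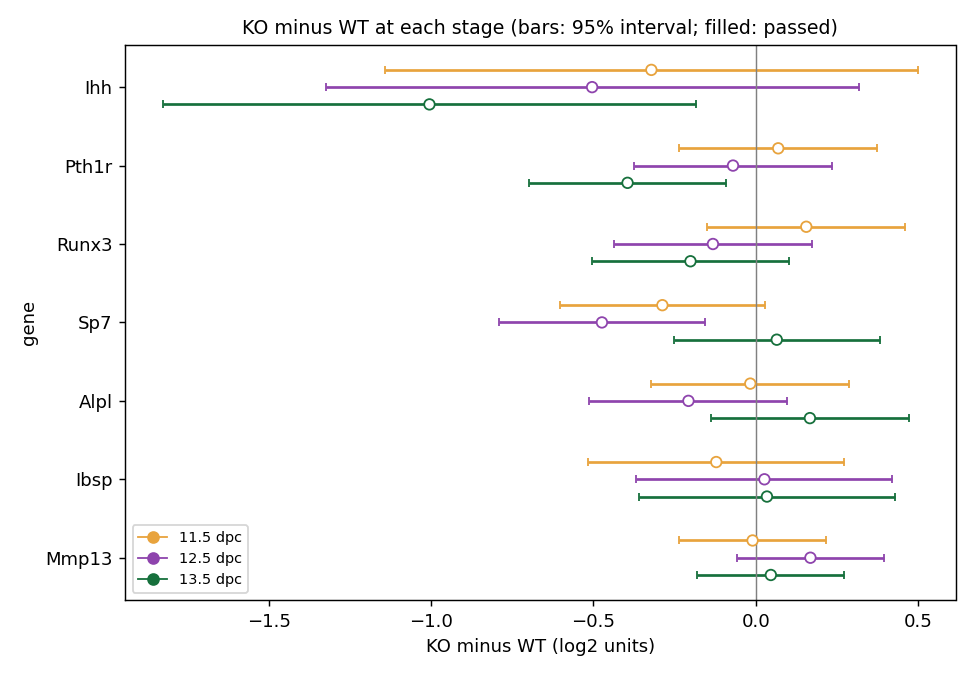
KO minus WT in log2 units for the 7 genes at 11.5 dpc (orange), 12.5 dpc (purple) and 13.5 dpc (green). Bars are 95% intervals of the limma fit and open points did not pass the adjusted threshold. Ihh has the lowest difference, -1.005, at 13.5 dpc, and Ihh and Pth1r at 13.5 dpc and Sp7 at 12.5 dpc have intervals below 0.

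With 1 probe set a gene, Ihh was the member with the most negative differences, -0.32 ± 0.37 at 11.5 dpc, -0.50 ± 0.37 at 12.5 dpc and -1.005 ± 0.37 at 13.5 dpc. The last had a 95% interval from -1.82 to -0.18 and a limma adjusted p of 0.762. Its mean over the 3 stages was -0.61 ± 0.21 (95% interval -1.08 to -0.14, limma adjusted p = 0.578). The 12.5 dpc difference and the mean depended on which of the 2 KO arrays at 12.5 dpc was kept. Without the second, which stood apart, the 12.5 dpc difference was 0.19 (adjusted p = 0.799) and the mean -0.38 (adjusted p = 0.454), and without both KO arrays that stood apart the mean was -0.28 (adjusted p = 0.401). Without the first the 12.5 dpc difference was -1.20 (adjusted p = 0.0404) and the mean -0.84 (adjusted p = 0.0107). The second Runx3 probe set had differences of -0.44, -0.55 and -0.72 ± 0.20 at the 3 stages, the first 2 of them more negative than those of Ihh. Pth1r differed by 0.07 at 11.5 dpc, -0.07 at 12.5 dpc and -0.40 ± 0.14 at 13.5 dpc (95% interval -0.70 to -0.09, limma adjusted p = 0.738). Without both KO arrays that stood apart, the 13.5 dpc differences were -0.71 for Ihh and -0.31 for Pth1r.

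Members whose genotypes did not overlap were counted beside the same share among all genes. Both KO arrays lay below both WT arrays for 1 of 7 members at 11.5 dpc (Sp7), where 26.8% of all genes did so, for 2 at 12.5 dpc (Runx3 and Sp7; 19.3%) and for 2 at 13.5 dpc (Ihh and Pth1r; 22.3%). Both lay above for 2 members at 11.5 dpc (Pth1r and, by its brighter probe set, Runx3; 12.8%), 1 at 12.5 dpc (Mmp13; 15.0%) and 1 at 13.5 dpc (Alpl; 11.6%). By its second probe set, Runx3 had both KO arrays below both WT arrays at 11.5 dpc too.

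The second KO array at 12.5 dpc held the lowest value of all 12 arrays for Ihh, Pth1r and Sp7. At 13.5 dpc the cartilage list mean was 9.15 and 8.68 log2 units in KO limbs, against 9.59 and 9.61 in WT limbs. The 4 arrays had the same order for Ihh, with the WT pair nearly equal in both. At the 2 earlier stages the orders differed. The first KO array at 12.5 dpc was the highest of its stage for Ihh (6.73). Its cartilage mean (9.05) was below those of both WT arrays (9.16 and 9.21). All 18 cartilage genes had negative KO minus WT differences at 13.5 dpc, with a median of -0.82 and 0 past the threshold, against a median of -0.01 over all genes. The median was -0.47 without both KO arrays that stood apart. The part that cartilage content plays in the Ihh and Pth1r values was not tested.

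Genes of the hedgehog pathway, its components as well as its response genes, were set beside Ihh. This list held 11 genes, of which 10 were measured. From 12.5 to 13.5 dpc, 3 of 10 passed as higher in KO limbs (Gli1, Smo and Sufu). In WT limbs 6 of 10 did (Gli1, Hhip, Smo, Sufu, Gli3 and Cdon), and none passed as lower in either genotype. A count over this list is therefore not a count of genes that answer hedgehog signalling. Among all genes 10.4% passed as higher in KO and 14.5% in WT limbs. The median changes were 0.21 in KO and 0.51 in WT limbs, against 0.04 and 0.01 over all genes. Gli1, the transcription factor whose own level reports hedgehog signalling, read 8.68 and 8.63 log2 units in KO and 9.15 and 9.17 in WT at 13.5 dpc, against 7.73 and 7.41 in KO and 7.57 and 7.51 in WT at 12.5 dpc. It rose by 1.09 ± 0.11 in KO limbs (limma adjusted p = 0.000921) and by 1.62 ± 0.11 in WT limbs (limma adjusted p = 6.42e-05), and both calls held in 21 of 21 alternatives.

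Hhip, a membrane protein that binds and restrains hedgehog ligands, read 7.66 and 6.96 log2 units in KO and 8.72 and 8.61 in WT at 13.5 dpc. At 12.5 dpc it read 7.18 and 6.55 in KO and 6.87 and 7.00 in WT. It had a change of 0.45 ± 0.24 in KO limbs (limma adjusted p = 0.214) and rose by 1.73 ± 0.24 in WT limbs (limma adjusted p = 0.00123). The difference between these changes was -1.28 ± 0.34 and did not pass (limma adjusted p = 0.467). At 13.5 dpc KO arrays lay below WT arrays by 1.35 for Hhip (-1.35 ± 0.24, limma adjusted p = 0.157) and by 0.51 for Gli1 (-0.51 ± 0.11, limma adjusted p = 0.254). Without the second KO array at 13.5 dpc these were -1.006 (adjusted p = 0.637) and -0.49 (adjusted p = 0.677). Leaving out another array made some of them pass: the adjusted p was 0.0317 for Hhip and 0.0445 for Gli1 without either KO array at 12.5 dpc, and 0.0337 for Hhip without the first KO array at 13.5 dpc, where its difference was -1.703. The KO change of Hhip was 0.77 without the first KO array at 12.5 dpc and 0.79 without the second at 13.5 dpc (adjusted p = 0.0481 and 0.0472). Ptch1, the hedgehog receptor, changed at another step. It rose from 11.5 to 12.5 dpc, by 0.45 ± 0.10 in KO limbs (limma adjusted p = 0.0168) and 0.56 ± 0.10 in WT limbs (limma adjusted p = 0.00610), when Ihh had no change that passed. From 12.5 to 13.5 dpc it had a change of -0.12 in KO and 0.04 in WT limbs. Gli1 went the other way over the first step, falling by 0.73 in KO and by 0.79 in WT limbs (limma adjusted p = 0.00274 and 0.00181). Early limb buds also express Shh, and the arrays do not tell which ligand these genes answered.

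**Figure D4:**
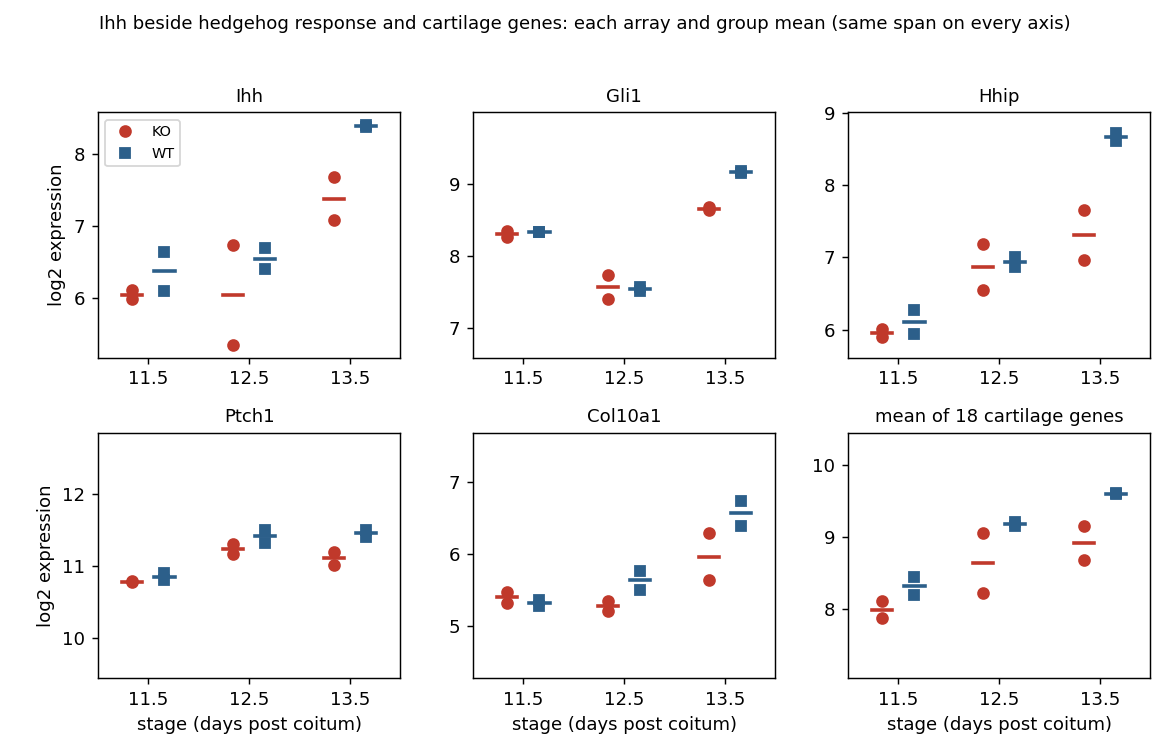
Log2 expression of Ihh, of the hedgehog response genes Gli1, Hhip and Ptch1, of Col10a1 and of the mean of 18 cartilage genes, by stage in days post coitum. Red circles are KO arrays, blue squares WT arrays and bars group means. At 13.5 dpc both WT arrays stand above both KO arrays in every panel, as they did for 22.3% of all genes. Only some genes of these lists are drawn.

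Of 13 genes of the parathyroid hormone-related peptide response and of the control of chondrocyte maturation, 0 passed as higher and 2 as lower in KO limbs from 12.5 to 13.5 dpc, and 4 passed as higher and 0 as lower in WT limbs. Among all genes 18.6% passed in either direction in KO and 25.3% in WT limbs. The median changes were 0.05 in KO and 0.31 in WT limbs. In KO limbs Fgf18, a growth factor that restrains chondrocyte proliferation, fell by 0.81 ± 0.20 (limma adjusted p = 0.0217) and Zfp521, a repressor of Runx2, fell by 0.46 ± 0.10 (limma adjusted p = 0.0111). In WT limbs Gdf10 rose by 1.41 ± 0.37, Nkx3-2, a repressor of chondrocyte maturation, by 0.66 ± 0.15, Mef2d by 0.51 ± 0.10 and Hdac4, which restrains Mef2 and Runx2, by 0.47 ± 0.15 (limma adjusted p = 0.0211, 0.0107, 0.00508 and 0.0430). Hdac4 passed in 11 of 21 alternatives and Gdf10 in 16. In the other genotype Fgf18 and Zfp521 had changes of -0.29 and -0.29 in WT limbs (adjusted p = 0.327 and 0.0501; Zfp521 passed in 10 of 21 alternatives), and Gdf10, Nkx3-2, Mef2d and Hdac4 had changes of 0.55, 0.01, 0.24 and 0.04 in KO limbs (adjusted p = 0.326, 0.968, 0.113 and 0.893). The difference of these changes between genotypes passed for 0 of the 13 genes in the limma fit. Fgfr3, which slows chondrocyte division, had a KO minus WT difference of -0.63 ± 0.12 at 13.5 dpc, which did not pass (limma adjusted p = 0.249). It was -0.83 without the first KO array at 13.5 dpc (adjusted p = 0.0167) and -0.43 without the second (adjusted p = 0.629).

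From 12.5 to 13.5 dpc, 1 of 18 cartilage genes passed as higher in KO limbs (Col9a3, 1.03 ± 0.30), where 10.4% of all genes did. In WT limbs 4 passed as higher (Col9a3, Col11a2, Col9a2 and Matn3, by 1.50, 1.39, 1.11 and 0.82), where 14.5% of all genes did. None passed as lower. The KO rise of Col9a3 passed in 11 of 21 alternatives. Of 12 hypertrophic cartilage genes, 1 passed as higher and 1 as lower in KO limbs and 3 as higher in WT limbs. Col10a1, the collagen of hypertrophic chondrocytes, read 6.29 and 5.64 log2 units in KO and 6.38 and 6.74 in WT at 13.5 dpc, and 5.21 and 5.35 in KO and 5.76 and 5.50 in WT at 12.5 dpc. It rose by 0.68 ± 0.20 in KO limbs (limma adjusted p = 0.0378, in 9 of 20 alternatives) and by 0.93 ± 0.20 in WT limbs (limma adjusted p = 0.00811, in 18 of 20). The KO rise was 1.01 without the second KO array at 13.5 dpc (adjusted p = 0.00749) and 0.35 without the first (adjusted p = 0.227). Dlx5, which acts ahead of Runx2 and Sp7, fell by 0.56 ± 0.12 in KO limbs (limma adjusted p = 0.0137), and had a change of -0.13 in WT limbs (limma adjusted p = 0.489). It also stands in the list of osteoblast factors.

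Osteoblast and bone matrix genes were set beside Sp7, Alpl and Ibsp. Of 14 osteoblast transcription factors, 3 passed as higher and 1 as lower in KO limbs and 4 as higher in WT limbs from 12.5 to 13.5 dpc. Over this step 10.4% of all genes passed as higher in KO and 14.5% in WT limbs. Dlx3 rose by 1.05 ± 0.13 in KO and 1.39 ± 0.13 in WT limbs, and Twist1, which restrains Runx2, by 0.41 ± 0.13 in KO and 1.01 ± 0.13 in WT limbs. The KO rise of Twist1 passed in only 6 of 21 alternatives. Of 17 measured bone matrix genes, 2 passed as higher in KO limbs (Pdpn, and Bmp1, which did so in 7 of 21 alternatives) and 3 in WT limbs (Col1a1, Pdpn and Bmp1), with none lower. These bone matrix counts were close to the shares of all genes. Col1a1, the main collagen of bone and also of skin and tendon, rose by 1.03 ± 0.26 in WT limbs (limma adjusted p = 0.0186). Its change in KO limbs was 0.60 ± 0.26 (limma adjusted p = 0.135).

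Markers of other tissues moved over the same step, where 18.6% of all genes passed in either direction in KO and 25.3% in WT limbs. All 6 muscle markers had negative changes in KO limbs and none passed, with a median of -0.83, and all 6 fell in WT limbs, with a median of -1.44. Of 6 surface ectoderm markers, 4 passed as higher in KO limbs and 6 in WT limbs, with medians of 0.73 and 1.24. Of 13 osteoclast genes, 2 passed as higher in KO limbs (Oscar and Ctsk), and in WT limbs Ctsk passed as higher and Acp5 as lower. Of 5 erythroid genes, 1 passed as lower in KO limbs and 3 in WT limbs, with medians of -0.70 and -1.39. Dissected part and stage cannot be told apart in these changes.

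In KO relative to WT limbs at 13.5 dpc, 0 of the 82 genes of the 6 skeletal lists passed in the limma fit, and 33 had an unadjusted p under 0.05 (40.2%, against 5.9% of all genes), 32 of them lower in KO limbs. Without the second KO array at 13.5 dpc, 8 did (9.76%, against 6.56% of all genes), all lower, and without both KO arrays that stood apart 29 did (35.4%, against 11.4%). At 11.5 and 12.5 dpc 2 and 9 of the 82 had such a p with all 12 arrays (2.44% and 11.0%, against 1.64% and 10.9% of all genes). All groups share 1 estimate of the spread, so these counts depend on every array. Leaving out the second KO array at 12.5 dpc raised the count at each stage, and some of the 82 then passed at 13.5 dpc. With or without that array, 59 of 82 differences were negative at 11.5 dpc. At 12.5 dpc 53 were negative with it and 30 without it. The medians of the lists at 13.5 dpc were -0.30 for the hedgehog list, -0.23 for the parathyroid hormone-related peptide list, -0.82 for cartilage, -0.22 for hypertrophic cartilage, -0.15 for osteoblast transcription factors and -0.18 for bone matrix. Negative differences were counted for 9 of 10, 11 of 13, 18 of 18, 9 of 12, 10 of 14 and 13 of 17 genes of these lists. Without the second KO array at 13.5 dpc the medians were -0.16, -0.13, -0.47, -0.12, -0.13 and -0.07 in the same order. Lists of other tissues also differed in their medians: that was -0.37 for surface ectoderm, with 6 of 6 genes negative, 0.69 for the erythroid list, with 5 of 5 positive, 0.36 for muscle and 0.69 for girdle and proximal limb genes, and 0 of these passed. Their part in the skeletal values was not tested. The median of the 7 members was 0.03, with 3 of 7 negative.

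Among the 917 genes with group means that span at least 1 log2 unit and at least 1 group mean above the median of all values, the 3 whose pattern over the 12 arrays was most like that of Ihh were Car12 (Pearson r = 0.981), Zfpm2 (0.979) and Tnmd (0.977). The arrays share stage, scan series and pool with Ihh, and r is a description. Tnmd, the tendon protein tenomodulin, had group means of 7.01 in KO and 8.25 in WT limbs at 13.5 dpc and from 4.95 to 5.58 in the earlier groups. Car12, a carbonic anhydrase, had group means of 7.83 in KO and 8.59 in WT limbs at 13.5 dpc. Zfpm2, a GATA cofactor, had 7.21 in KO and 8.07 in WT limbs at that stage. Like Ihh, these 3 genes had their highest group mean in WT and their next highest in KO limbs at 13.5 dpc.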

How the data were processed

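Total RNA from pooled limbs of mouse embryos was read on 12 one-colour Affymetrix Mouse Genome arrays, 2 for each of 6 groups of genotype and stage. The authors deposited log2 expression values. Per the submitters' processing notes they came from RMA, a method that subtracts background, brings arrays to a common distribution and condenses the probes of a probe set. Its version was not given in these sources. The 64 control probe sets were left out. The platform annotation named 1 gene for 34945 probe sets, several for 932 and none in the table used here for 9160. Each of 18193 genes was represented by its brightest probe set by mean over the 12 arrays.

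Group means of all 12 arrays were fitted by lmFit and eBayes of limma 3.58.1, run in R 4.3.3 (two-sided tests, Benjamini-Hochberg adjustment over the 18193 genes, threshold 0.05), and SE, 95% intervals and adjusted p-values come from this fit, or from the same fit over all probe sets for the second Runx3 and Ibsp probe sets. The p-values measure only the spread between replicate pools. The fit was tested on simulated data. Alternatives left out each array or both KO arrays that stood apart, and changed the probe set rule, scaling, dim filter, variance model, array weights and block. Of each gene list, up to 4 genes past the threshold with the largest differences were named, or the 2 largest where fewer than 2 passed. Smaller ones could be left out, and some genes so named were also given in a genotype or step where they did not pass. The members, lists and tests were chosen with earlier results of these data known. With 2 arrays a group, precision is limited by their number.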

Additional observations from a re-analysis of the deposited data

How the results depend on the processing

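Of 1616 member values recomputed under the alternatives, 1488 kept their call and their sign, whatever the size of the movement. Many alternatives could not alter the log2 difference, such as leaving out an array of a group outside the comparison or changing only the variance model. There the sign was fixed in advance and only the call could move, so this total is no measure of robustness. With the sign kept, 14 newly passed and 13 no longer passed. A further 100 changed sign without passing before or after, and 1 changed sign and newly passed. Ihh, at -0.01 log2 units for KO limbs at 12.5 relative to 11.5 dpc, became 0.69 without both KO arrays that stood apart (adjusted p = 0.0481). The cause was not tested.

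For KO limbs from 12.5 to 13.5 dpc, 1 member passed. That count was 2 after renewed quantile normalization (Ihh and Pth1r), 2 with dim genes left out and 2 with the replicate block (Ihh and Alpl), and 0 with array quality weights. It ran from 0 to 2 when single arrays were left out. For KO limbs from 11.5 to 12.5 dpc, the count of 1 became 2 without both KO arrays that stood apart (Ihh and Alpl) and 0 after renewed quantile normalization or subtraction of array medians, and ran from 0 to 1 over single arrays. For WT limbs from 11.5 to 12.5 dpc, the count of 0 became 1 (Runx3) without both of these arrays and ran from 0 to 1 over single arrays. The counts of 0 for the mean KO minus WT difference and for that at 12.5 dpc ran from 0 to 1 over single arrays. The count of 2 in WT limbs from 12.5 to 13.5 dpc held under every alternative run, as did the counts of 0 for KO minus WT at 11.5 and 13.5 dpc and for the 3 differences of the KO effect.

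Same-numbered KO and WT pools did not deviate together (correlations of their deviations of 0.187, -0.120 and -0.0869 at 11.5, 12.5 and 13.5 dpc), so the numbers were not taken to pair them. The replicate block therefore stands here only. Subtracting array medians shifted the median change of all genes by 0.131 in WT limbs from 11.5 to 12.5 dpc and by -0.104 from 12.5 to 13.5 dpc.

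Over all genes, 37 passed for the mean KO minus WT difference, between 6 (without the first KO array at 11.5 dpc) and 434 (without the first at 12.5 dpc) when single arrays were left out, and between 22 and 40 under the other alternatives. At 11.5, 12.5 and 13.5 dpc the counts were 3, 7 and 5, with ranges of 0 to 5, 1 to 515 and 0 to 56 over single arrays, and of 2 to 14, 1 to 94 and 2 to 14 over the other alternatives. The 515 came without the first KO array at 12.5 dpc, which leaves the one that stood apart, the 94 without both that stood apart, and the 56 without the first KO array at 13.5 dpc. Where KO effects of 2 stages were set against each other, the 3 counts of 0 reached at most 38, 46 and 12 over single arrays. For KO limbs 3054 genes passed over the first step (462 to 4545 under all alternatives) and 3382 over the second (496 to 4489), and for WT limbs 3603 (814 to 5950) and 4598 (1663 to 6940). The lowest of these came without the second array of KO at 11.5, WT at 11.5 or WT at 13.5 dpc, or, for the 496, with array quality weights.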

Other observations

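Between 11.5 and 12.5 dpc, before Ihh had a change that passed, cartilage genes were the skeletal list with the most genes called higher. Of 18, 5 passed as higher in KO limbs and 10 in WT limbs, with none lower and median changes of 0.53 and 0.76. Among all genes 6.22% passed as higher in KO and 6.67% in WT limbs, which is 1131 and 1213 of 18193 genes. After array medians were subtracted, these became 1684 and 2433 genes. The cartilage counts are those before subtraction, and none is given for the subtracted values. Values of the listed genes were known when the examples given here were picked. Acan, which encodes the main cartilage proteoglycan aggrecan, rose by 1.34 ± 0.38 log2 units in KO limbs and by 1.69 ± 0.38 in WT limbs (SE, limma adjusted p = 0.0382 and 0.0135), and the KO rise passed in 13 of 21 alternatives. Matn1, a cartilage matrix protein, had a change of 1.21 ± 0.53 in KO limbs (limma adjusted p = 0.150) and rose by 1.88 ± 0.53 in WT limbs (limma adjusted p = 0.0326). Outside the cartilage list, Fgfr3, a gene of the chondrocyte maturation list, rose by 0.85 ± 0.12 in KO limbs and by 0.89 ± 0.12 in WT limbs (limma adjusted p = 0.00279 and 0.00199). Of 12 hypertrophic cartilage genes, 0 passed in either genotype over this step.

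Genes listed for bone matrix or osteoclasts passed about as often over this step as genes at large. Of 17 bone matrix genes, 2 passed in KO and 3 in WT limbs, and of 13 osteoclast genes 2 passed in each, where 16.8% of all genes did in KO and 19.8% in WT limbs. Cdh11, a cadherin of osteoblasts and other mesenchyme, rose by 0.56 ± 0.10 in KO limbs and by 0.49 ± 0.10 in WT limbs, and Omd, a matrix proteoglycan, had a change of 0.15 in KO limbs and rose by 0.49 ± 0.14 in WT limbs (limma adjusted p = 0.00610, 0.00936, 0.501 and 0.0354). Sost, a WNT inhibitor best known from osteocytes, fell by 1.41 ± 0.38 in KO limbs and by 1.47 ± 0.38 in WT limbs (limma adjusted p = 0.0304 and 0.0227), and the KO fall passed in 15 of 21 alternatives. Nfatc1, which drives osteoclast formation and also acts in endothelium, rose by 1.10 ± 0.26 in KO limbs and by 1.30 ± 0.26 in WT limbs (limma adjusted p = 0.0192 and 0.00854). Itgb3, an integrin subunit of osteoclasts and platelets, fell by 0.83 ± 0.17 in KO limbs and by 0.76 ± 0.17 in WT limbs (limma adjusted p = 0.0108 and 0.0135). Both stages were dissected with the girdle, but each has its own scan series, so stage and scan series cannot be told apart.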
